A study of Homo sapiens with 73 samples.

Results

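The Ewing sarcoma line CHLA-9, an established line, has the fusion gene EWSR1-FLI1. The comparison described here was made at time point 6, after the EC course of cycle 3, between 6 lineages treated with chemotherapy (R1, R3, R4, R5, R6 and R7) and 3 lineages kept with the solvent DMSO (R8, R9 and R10). These were all the libraries labelled with that time point, 9 of the 73 in the series, chosen by the label alone, and no library of treated R2 was among them. All lineages were separate cultures started from 1 parental culture of the line that had not met chemotherapy. By time point 6 a treated lineage had received 3 courses of VDC (vincristine, doxorubicin and cyclophosphamide) and 3 of EC (etoposide and cyclophosphamide), in turn. Each course was a 5-day exposure at the concentration giving 70% of the maximal effect, followed by regrowth in medium without drug. The DMSO lineages carried the same time point names. RNA was taken after regrowth, so the values describe recovered cultures and not cells in drug. The lineages share 1 origin, and the p-values measure the spread between cultures of this line only.

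The drugs of the 2 courses damage cells in different ways. Vincristine binds tubulin and blocks the mitotic spindle, doxorubicin and etoposide trap topoisomerase II on cleaved DNA, and activated cyclophosphamide alkylates and crosslinks DNA. In Ewing sarcoma the EWSR1-FLI1 fusion acts as an aberrant transcription factor that turns some genes on and holds mesenchymal genes down. Cultures that have regrown to near confluency can also differ in how many cells are dividing, and mitotic genes are transcribed in a wave before division.

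The deposited values were quantile-normalized read counts per gene, called normalized counts below, of 36233 genes. The 6 treated columns each summed to about 13583500 and the 3 DMSO columns to about 13582500, so sequencing depth is not known and no counting interval can be given. Tests covered 14410 genes whose mean over the 9 libraries reached 10 and ran on log2(value + 1), and all differences below are treated minus DMSO on that scale, which understates the change of low genes. Of 9 Ewing sarcoma markers, 8 had a mean of at least 10, among them NR0B1, PRKCB, CCND1 and BCL11B. The summed level was 71889.7 to 90296.5 in treated and 75043.3 to 76407.3 in DMSO lineages. CCND1, a cyclin of G1, was the largest part of each sum, from 35961 in R4 to 59514 in R1, so the sums say little about the lower markers. CD99, a surface protein used as a marker of this tumour, was listed at 2.23 or lower in all 9 libraries. Whether these values reflect the true level of CD99 was not tested. Markers of epithelium (7 of 16), blood cells (4 of 15) and endothelium (1 of 9) with a mean of at least 10 were fewer. The defining markers EPCAM (epithelium), PTPRC (blood cells) and PECAM1 (endothelium) stood at no more than 2.86, 13.3 and 2.58, while other members of these lists were higher, up to 186 for KRT18, 175 for CD79A and 55.3 for CLDN5. The summed levels were 264 to 543 in treated and 284 to 464 in DMSO lineages for epithelial, 164 to 258 and 138 to 249 for blood cell, and 40.3 to 77.4 and 31.2 to 60.4 for endothelial markers. Of 15 muscle and fibroblast markers 11 had a mean of at least 10, and their sums are given with the matrix genes below. In bulk RNA, fewer cells of a type and less RNA per cell cannot be told apart.

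The 9 libraries did not fall into their arms. In a principal component analysis, component 1 held 42.7% of the variance and placed treated R1 (score 56.6) beside DMSO R9 (40.6) and R10 (34.6). DMSO R8 (-33.7) lay beside treated R6 (-33.7) and R4 (-28.9), treated R7 at -20.5, R3 at -14.2 and R5 at -0.89. Thus 1 treated library lay with 2 of the 3 DMSO libraries, and 1 DMSO library lay among the treated ones. The labels were kept as given, and whether any library carries the wrong label was not tested, so each difference between the arms holds for the libraries as labelled. Among time point 5 libraries of the same arm, the deviations of R1 and R8 from their arm means correlated best with their own lineage. The r was 0.63 and 0.59 across genes, which are not independent replicates. In that comparison 5 of 9 lineages matched themselves best. No library of the other arm entered it, so it cannot test the labels. With deviations taken from the mean of all 73 libraries, R1 correlated at 0.848 with DMSO R10 of time point 5. With the R1 library of time point 5 the value was 0.636.

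**Figure D1:**
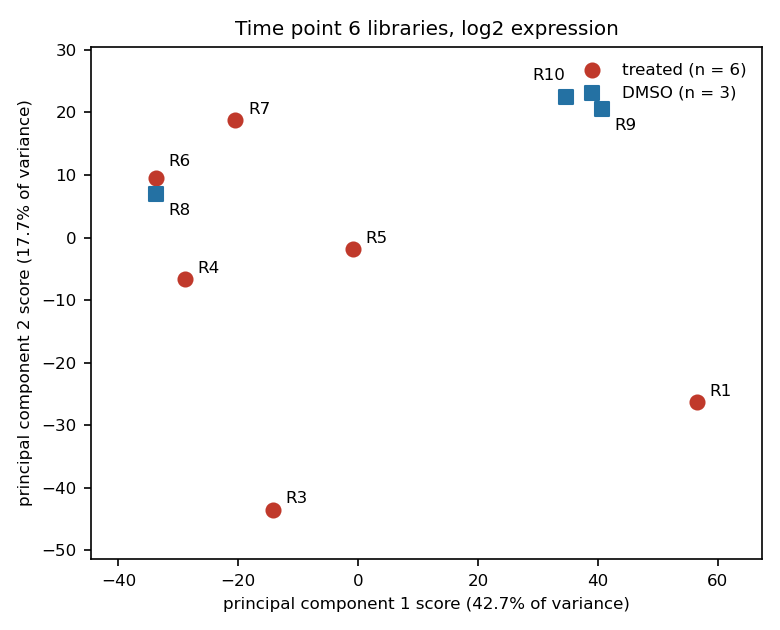
Scores of the 9 libraries of time point 6 on principal components 1 (horizontal, 42.7% of the variance) and 2 (vertical, 17.7%) of log2(normalized count + 1), with 6 treated lineages and 3 DMSO lineages marked apart. R1 lies on the side of DMSO R9 and R10, and DMSO R8 lies beside treated R6.

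Distances between libraries showed the same layout. The distance used was the root mean square log2 difference over the 14410 genes. Libraries of different arms lay 0.626 apart on average, treated libraries 0.614 and DMSO libraries 0.594. The between-arm distance exceeded the within-arm distance by 0.0157, which did not pass an exact permutation test over 84 splits (2-sided p = 0.726, smallest possible p 0.0119). The spread within the treated arm exceeded that within DMSO by 0.0199 (exact permutation, 2-sided p = 0.869). Without R8 it exceeded it by 0.249 (p = 0.0357 in the exact permutation test of the remaining 8 libraries, the smallest it allows). The DMSO spread was then the single distance between R9 and R10, the smallest of any pair in the 9 libraries. Without R1, R9 or R10 the difference in spread was -0.060, -0.076 and -0.113. Over all 73 libraries, the nearest neighbour of treated R1 was the DMSO R10 library of time point 5, at 0.336. Only 11 of the 2628 pairs of libraries lay closer, and the R1 library of time point 5 was farther away, at 0.463. DMSO R9 and R10 were nearest to each other, at 0.365, and next to treated R1 of time point 7, at 0.418 and 0.385. The nearest neighbour of DMSO R8 was treated R6 of the same time point, at 0.407. Because R1 and R8 bear on every difference between the arms, counts of passing genes are also given below without them, and list medians with each library left out in turn.

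Genes of G2 and mitosis followed the position of the libraries rather than their arm. The median log2 deviation of the 33 list members from their 9-library mean was 0.48 in treated R1, 0.33 in DMSO R9 and 0.20 in DMSO R10. It was 0.11 in R5 and 0.02 in R3, and below 0 in R4 (-0.24), R7 (-0.26), R6 (-0.27) and DMSO R8 (-0.36). The highest and the lowest library of this list therefore came from the arm opposite to most of their neighbours. CCNB2, which encodes cyclin B2 of the mitotic kinase, had normalized counts of 1046 in R1, 978 in R9 and 879 in R10, against 447 in R4, 488 in R6 and 332 in R8. CDC20, the activator of the anaphase-promoting complex, ran from 998 in R8 to 2386 in R1. PRC1, which bundles spindle microtubules in late mitosis, ran from 84.2 in R7 to 189.8 in R1.

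Promoters of late cell cycle genes are known for 2 short elements, the cell cycle homology region (TTTGAA) and the CCAAT box bound by NF-Y. In the 250 bases before the start site, with both strands searched, TTTGAA was present in 59.3% of the 27 list members with 1 or more entries in RefSeq (GRCh38.p14), CCAAT in 85.2% and both in 51.9%. Over all 27305 genes with an entry the shares were 16.1%, 37.0% and 5.79%. The CCAAT share was not particular to this list. Among 29 replication-dependent histone genes the shares were 37.9%, 89.7% and 31.0%. Among 31 G1/S and replication genes they were 6.45%, 67.7% and 6.45%. The windows below belong to the 3 members with 1 promoter entry and both elements whose levels ranged most widely over the 9 libraries, and show the elements that many list members share. The order of the libraries differed among the 3 genes, but R1 was the highest in each. Capitals mark TTTGAA or CCAAT on either strand, and no 2 matches overlap in these windows. The CCNB2 window is chr15:59104896-59105145 on the plus strand, that of CDC20 chr1:43358731-43358980 on the plus strand and that of PRC1 chr15:90994536-90994785 on the minus strand, each written 5′ to 3′ along the gene.
CCNB2: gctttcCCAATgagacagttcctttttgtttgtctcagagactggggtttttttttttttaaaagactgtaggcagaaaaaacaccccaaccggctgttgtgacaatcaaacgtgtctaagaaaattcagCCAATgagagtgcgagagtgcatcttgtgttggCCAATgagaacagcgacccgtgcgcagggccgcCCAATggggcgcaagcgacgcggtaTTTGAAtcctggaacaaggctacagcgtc
CDC20: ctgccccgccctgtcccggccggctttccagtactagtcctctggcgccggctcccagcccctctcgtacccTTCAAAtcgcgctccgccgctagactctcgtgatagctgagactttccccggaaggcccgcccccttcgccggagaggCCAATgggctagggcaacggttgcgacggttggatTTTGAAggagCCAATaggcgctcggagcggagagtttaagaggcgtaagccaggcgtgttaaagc
PRC1: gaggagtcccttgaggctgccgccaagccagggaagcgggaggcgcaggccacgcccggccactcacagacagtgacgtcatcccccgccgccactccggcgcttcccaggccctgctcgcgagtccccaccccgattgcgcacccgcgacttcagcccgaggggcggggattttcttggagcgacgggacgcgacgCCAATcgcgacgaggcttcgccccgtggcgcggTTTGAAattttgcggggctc
A match in letters is a description of the window and not of a bound site.

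Other groups set R1 and R8 apart in a like way. G1/S and replication genes were at 0.47 in R1 and -0.36 in R8, and replication-dependent histone genes, which package new DNA in S phase, at 0.55 and -0.53. Genes of inflammation and matrix lay the other way. NF-kB and secreted inflammatory genes were at -0.88 in R1, -0.68 in R9 and -0.75 in R10, but at 0.61 in DMSO R8 and up to 0.90 in treated R3. Collagen and matrix genes were at -0.45 in R1 and 0.25 in R8, and immediate early genes, which respond within minutes to growth factors, ranged from -1.29 in R5 to 1.04 in R3. Whether the growth state of the cultures at sampling contributed to any difference between the arms was not tested, beyond 1 fit described below.

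**Figure D2:**
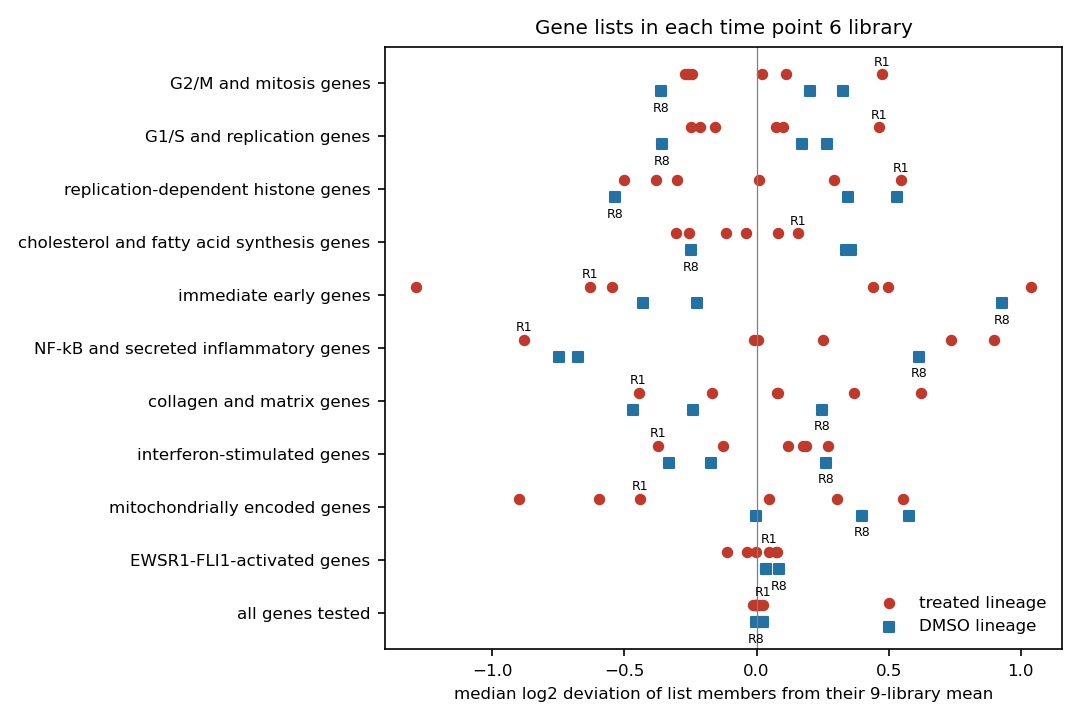
Median log2 deviation of the members of 10 gene lists, and of all genes tested, from their mean over the 9 libraries (horizontal), for 6 treated and 3 DMSO lineages. In the lists of dividing cells R1 lies at the right with DMSO R9 and R10 while R8 lies at the left, and in the NF-kB and matrix lists the order is turned round.

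No gene passed the threshold between the arms at time point 6. With limma and Benjamini-Hochberg adjustment, 0 of 14410 genes (0%) had an adjusted p under 0.05, and the smallest was 0.347. At an unadjusted p under 0.05 stood 797 genes (5.53%), 465 higher (3.23%) and 332 lower (2.3%) in treated lineages. In 393 genes (2.73%) the 6 treated values all lay on 1 side of the 3 DMSO values, 210 above (1.46%) and 183 below (1.27%). A fit that shared the spread of 72 libraries also called 0 genes (0%), with 566 (3.93%) at an unadjusted p under 0.05.

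The 0 depends on single libraries and on how they are weighted. Without R1, 2 genes passed, ACADVL and PLCL2, and without DMSO R8, 3 genes passed, KASH5, MXRA5 and GFRA1, all higher in treated lineages (PLCL2, MXRA5 and GFRA1 are named because they passed there). Limma's array weights, which give a library more weight the less it departs from its arm, called 2662 of 14410 genes. Of these, 1392 lay higher and 1270 lower. The weight was 5.73 for DMSO R10, and lowest for DMSO R8 (0.338) and treated R1 (0.362), which lay with the other arm. Since the weights came from these same values, that count supports no difference between the arms. Leaving out R1 and R8 together gave 551 genes, 434 higher and 117 lower. Those 2 were picked after the data were seen because they lay with the other arm, a choice that by itself moves the arms apart, so that count supports no difference between them.

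The 10 genes with the smallest p-values that lay higher in treated lineages are in none of the 34 gene lists used here. KASH5, which ties meiotic telomeres to the dynein motor, had a lowest, median and highest normalized count of 135, 166 and 185 in the 6 treated lineages, against 89.7, 53.3 and 45.4 in DMSO, where DMSO values here and below are in the order R8, R9, R10. The groups did not overlap, and R8 was the DMSO library nearest to the treated ones. The difference was 1.41 ± 0.21 (SE, log2; 95% interval 0.94 to 1.88; limma adjusted p = 0.347). ACADVL, the very long-chain acyl-CoA dehydrogenase of mitochondrial fatty acid oxidation, stood at 1841, 2320.3 and 2450.3 in treated lineages and at 1411, 1491 and 1505 in DMSO. Its DMSO values lay close together, R1 was the lowest treated library, and the difference was 0.62 ± 0.10 (SE, log2; limma adjusted p = 0.347). CES4A, a member of the carboxylesterase family, had 90.5, 103 and 122 in treated lineages and 55.1, 28.5 and 36.9 in DMSO, a difference of 1.39 ± 0.22 (SE, log2; limma adjusted p = 0.347). In all 3 genes each treated library exceeded each DMSO library, and R8 was the highest DMSO value for KASH5 and CES4A but the lowest for ACADVL.

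The other 7 of the 10 highest-ranked genes had a limma adjusted p of 0.655 and did not overlap between the groups either. Their choice by p-value in these libraries favours this, and the share was 2.73% over all genes tested. FBXL8, an F-box protein, differed by 1.25 ± 0.22 (SE, log2), with treated values of 58.2, 61.8 and 98.9 against 30.9, 28.5 and 24.2 in DMSO. HDAC10, a polyamine deacetylase, was low in all libraries, with 18.3, 22.7 and 35.4 in treated lineages against 11.1, 6.29 and 5.89 in DMSO, a difference of 1.53. ADAMTSL2, a secreted glycoprotein of the matrix, differed by 1.21 (38, 44.6 and 59.1 against 17.3, 16.7 and 25.6 in DMSO). The remaining 4 differed by less than 1 log2 unit: RAB26, a GTPase of secretory vesicles, by 0.80, ARHGAP33, a GTPase-activating protein, by 0.66, OGDHL, a relative of oxoglutarate dehydrogenase, by 0.60, and MRI1, an enzyme of methionine salvage, by 0.54. In the parental library, of which there was 1, ACADVL, CES4A, FBXL8, ARHGAP33, RAB26, HDAC10 and MRI1 stood above every treated value, and KASH5, OGDHL and ADAMTSL2 below every treated value.

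The 10 genes with the smallest p-values that lay lower in treated lineages included secreted and cell-surface proteins. The share of such proteins was not compared with that over all genes tested. PRELP, a leucine-rich proteoglycan of connective tissue, had 180.2, 229.9 and 311 in treated lineages against 372, 539.9 and 619.7 in DMSO. All DMSO values lay above all treated ones, R8 being the nearest, and the difference was -1.09 ± 0.21 (SE, log2; 95% interval -1.54 to -0.63; limma adjusted p = 0.655). PRND, which encodes the prion-like protein Doppel, had 395, 597 and 725 against 852, 921 and 1209.9 in DMSO and differed by -0.77 ± 0.18 (SE, log2; limma adjusted p = 0.783). IGFBP5, a secreted binding protein for insulin-like growth factors, was the most abundant of the 10, with 5692, 6067 and 9074 against 10116, 10429 and 11409 in DMSO, and differed by -0.66 ± 0.16 (SE, log2; limma adjusted p = 0.811). ERBB3, the neuregulin receptor, had 36.7, 57.9 and 79.6 against 75.9, 223 and 205 in DMSO. It was the only 1 of the 10 whose groups overlapped, since R8 lay within the treated range, and its -1.41 ± 0.36 (SE, log2; limma adjusted p = 0.811) rested on R9 and R10. JAG1, a Notch ligand, differed by -0.63, the guidance protein SEMA3F by -0.44, the membrane protein TMEM150C by -0.75 and PGAP1, which remodels GPI anchors, by -0.38. The antisense RNAs RORA-AS1 (-1.34) and EPC1-AS1 (-1.08) completed the 10.

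**Figure D3:**
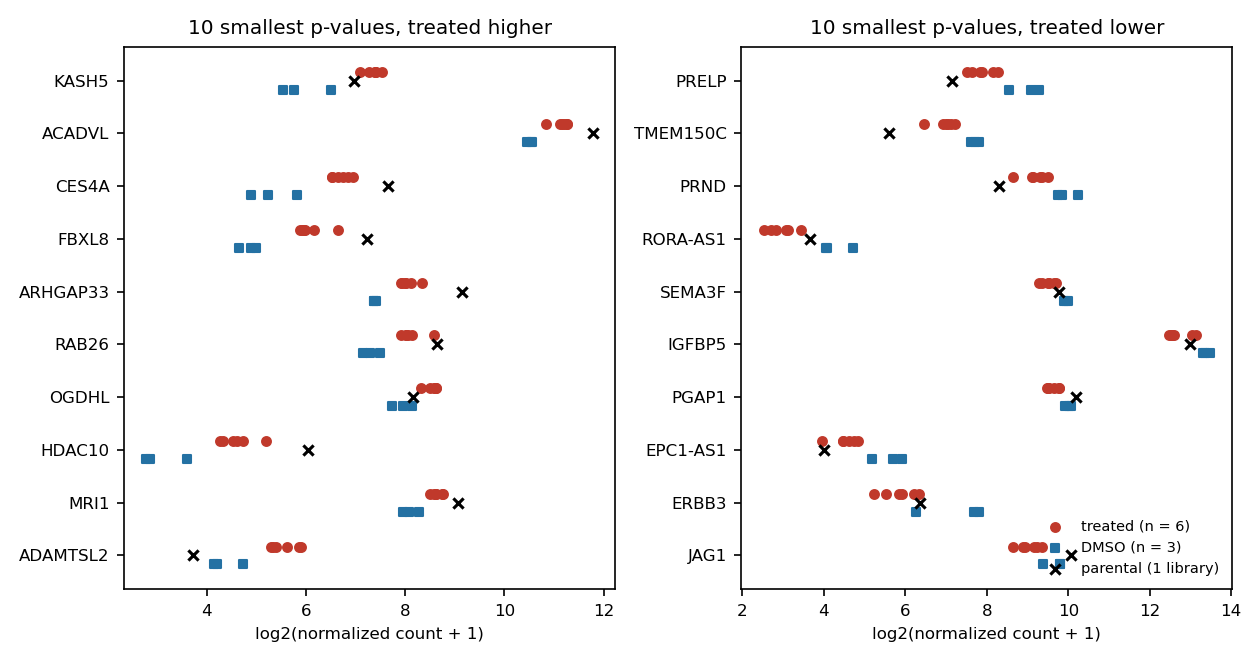
log2(normalized count + 1) of the 10 genes with the smallest p-values in each direction, in 6 treated lineages (circles), 3 DMSO lineages (squares) and the parental library (cross). Treated and DMSO points do not overlap in 19 of the 20 genes, ERBB3 being the exception. The genes were picked by p-value in these same libraries, a choice that favours groups without overlap, and none passed the threshold. Over all 14410 genes tested the share without overlap was 2.73%. The parental library often lies outside the range of both arms.

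Several of these genes share their locus with another gene, and whether counting used strand is not given in the sources used here. Positions are from GENCODE v29 on GRCh38, except those of KASH5 (chr19:49388249-49417990) and EPC1-AS1, which are from RefSeq on GRCh38.p14. ACADVL (chr17:7217125-7225273) overlaps DLG4, FBXL8 (chr16:67159931-67164570) overlaps TRADD, HDAC10 (chr22:50245183-50251405) overlaps MAPK12 and MRI1 (chr19:13764532-13774282) overlaps C19orf53. RORA-AS1 (chr15:60479178-60630637) overlaps RORA, EPC1-AS1 overlaps EPC1, and SEMA3F, IGFBP5, ERBB3 and JAG1 each overlap another annotated locus. Reads from such partners may not be told apart. CES4A (chr16:66988589-67009758), PRELP (chr1:203475828-203491352), PRND (chr20:4721910-4728460), RAB26 (chr16:2140803-2154165) and PGAP1 (chr2:196833004-196927796) overlap no other gene of the types searched in GENCODE v29. Those types were protein-coding, lincRNA, antisense and processed transcript genes, and other types were not searched.

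The same genes were then followed over the 7 time points with at least 2 DMSO libraries, with the shared fit of 72 libraries. None of the 10 higher genes and 1 of the 10 lower genes, SEMA3F, kept the sign of time point 6 at all 7 time points. KASH5 differed by 0.65 at time point 5, -0.0046 at 8 and -2.53 at 9. At time point 9 it passed the threshold in the opposite direction (limma adjusted p = 0.00779 in the shared fit). ACADVL stood at 0.038, 0.19 and -0.42 at the same time points, and CES4A at -0.18, 0.99 and -0.25. PRND, lower at time point 6, stood at 1.43 at time point 8 and 3.21 at time point 9. These sets differ in size, with 3 treated and 3 DMSO libraries at time point 9 and 2 DMSO libraries at time points 4 and 10.

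**Figure D4:**
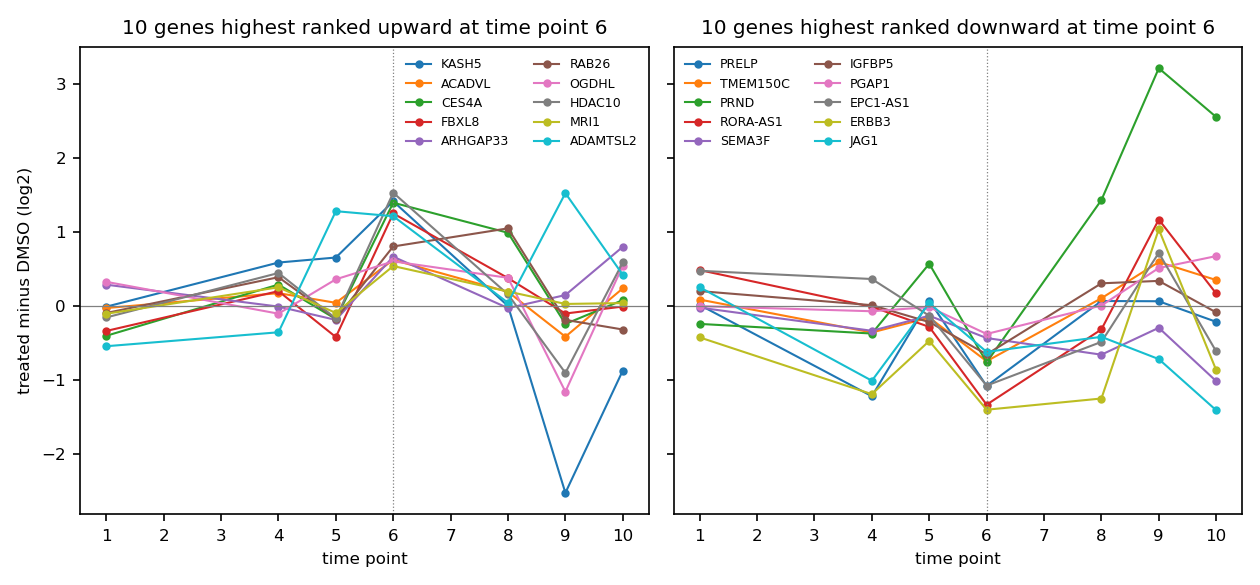
Treated minus DMSO difference (vertical, log2) at time points 1, 4, 5, 6, 8, 9 and 10 (horizontal) in the shared fit of 72 libraries, for the 10 genes ranked highest upward (left) and downward (right) at time point 6. Most lines lie far from 0 at time point 6, where the genes were picked, and cross 0 elsewhere.

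MKX and TTLL7 stood higher in treated lineages at each of these time points, a pattern known from the comparison over all time points and not independent of it. TTLL7, a polyglutamylase that modifies tubulin, had 16.9, 60.5 and 97.4 at time point 6 against 13.8, 10.4 and 20.2 in DMSO. The lowest treated library, R1, lay within the DMSO range. The difference was 1.76 ± 0.50 (SE, log2; limma adjusted p = 0.811). MKX, a homeobox factor of tendon, had 191, 292 and 743 against 198, 159 and 154 in DMSO and differed by 0.90 ± 0.36 (SE, log2; limma adjusted p = 0.895).

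The 2 genes that form the fusion differed between the arms by less than their standard errors. EWSR1 had 2346, 2695 and 2964 in treated lineages against 2682, 2742 and 2528 in DMSO, a difference of 0.023 with a 95% interval of -0.17 to 0.22. FLI1 differed by 0.0046 (95% interval -0.17 to 0.18). Gene-level counts do not separate the fusion transcript from the normal alleles. NR0B1, a nuclear receptor and direct fusion target, differed by -0.045 (95% interval -0.37 to 0.28), a value that turned to 0.039 without R3. Of 31 fusion-activated genes tested, 15 lay higher and 16 lower, with a median of -0.027 against -0.011 over all genes tested. Its sign turned with the library left out, from -0.058 without R6 to 0.0055 without R3. CALCB, a neuropeptide gene, was the activated gene with the smallest p-value, at -0.48 ± 0.16 (SE, log2; limma adjusted p = 0.861). Of 22 fusion-repressed genes, 14 lay higher, with a median of 0.16 that ran from 0.0042 without R9 to 0.32 without R7. IGFBP3, a secreted binding protein that the fusion holds down, had 143, 239 and 489.5 against 349.6, 39 and 34.2 in DMSO and differed by 1.70 ± 0.70 (SE, log2; limma adjusted p = 0.895).

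None of the topoisomerase and related drug response genes passed the test. TOP2A, the topoisomerase II of dividing cells, had 6643, 7481 and 11906 against 6674, 9874 and 9436 in DMSO. R1 was the highest of the 9, and R8 lay with R6 and R7 at the low end, and the difference was -0.08 (95% interval -0.53 to 0.37). TOP2B, the form also present in cells that do not divide, differed by -0.19 (95% interval -0.39 to 0.013). TDP2, which removes trapped topoisomerase II from DNA ends, differed by -0.075 (95% interval -0.34 to 0.19). SLFN11, which blocks stalled replication forks and marks sensitivity to DNA-damaging drugs, had 3467, 3795 and 4275 against 4094, 3373 and 3479 in DMSO and differed by 0.074 (95% interval -0.14 to 0.28). These intervals bound the differences, and a p that misses the threshold does not show that the arms were equal.

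Drug handling and repair genes were mixed. Of 16 efflux and uptake transporters tested, 8 lay higher and 8 lower, and none passed. ABCC1, an efflux pump for anthracyclines and vincristine, differed by 0.078 (95% interval -0.29 to 0.45). ABCC3, another efflux pump of that family, had 4.73, 14.1 and 38.2 in treated lineages against 3.73, 2.83 and 3.9 in DMSO, groups that did not overlap, at levels near the low-value limit. Its difference was 1.63 ± 0.55 (SE, log2; limma adjusted p = 0.875). ABCG1, a cholesterol exporter, lay lower at -2.29 ± 0.79 (SE, log2; limma adjusted p = 0.875), with 0.00158, 5.02 and 10.1 against 7.75, 29.9 and 57.9 in DMSO. The efflux pump ABCB1 had a mean below 10 and was not tested. ALDH1A1, an aldehyde dehydrogenase that can inactivate cyclophosphamide metabolites, had 93.4, 131 and 197 against 140.5, 79 and 61.4 in DMSO and differed by 0.63 (95% interval -0.065 to 1.32). Of 33 homologous recombination and Fanconi genes 15 lay higher and 18 lower, with a median of -0.037 whose sign turned with the library left out, from -0.16 without R8 to 0.04 without R9. Of 35 genes of end joining, excision and mismatch repair 12 lay higher and 23 lower, with a median of -0.039 that ran from -0.092 without R8 to -0.011 without R10.

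The p53 target genes did not lie higher as a group in treated lineages after regrowth. CDKN1A, which encodes the cell cycle inhibitor p21, had 419.8, 909 and 1699 against 863, 1189.7 and 1249 in DMSO. The treated lineages spread on both sides of the DMSO ones, R5 lowest and R4 highest, and the difference was -0.35 (95% interval -1.11 to 0.42). MDM2, which degrades p53, had 1729, 2059.6 and 3512 against 2252, 2454 and 2452 in DMSO and differed by -0.10, again with R4 highest. Of 30 p53 target genes tested 11 lay higher and 19 lower, with a median of -0.11 that ran from -0.22 without R4 to -0.057 without R5. At an unadjusted p under 0.05, 2 of the 30 lay higher and 1 lower, against 3.23% and 2.3% of all genes tested. PMAIP1, which encodes the cell death protein NOXA, had 4.02, 44.6 and 54 against 15.6, 6.29 and 7.81 in DMSO. R1 lay below all DMSO libraries while the other 5 treated libraries lay above them, and the difference was 1.58 ± 0.71 (SE, log2; limma adjusted p = 0.901). PHLDA3, an inhibitor of AKT, differed by 0.51 and the ubiquitin ligase subunit FBXO22 by -0.31.

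In each of the 34 gene lists, 0 members passed in limma at an adjusted p under 0.05, and the lists below are described by counts and medians beside those of all genes tested (47.3% higher, median -0.011). The lists were chosen with results of these data known. Normalizing the 9 libraries together put the median of all genes at -0.012 and size factor scaling at 0.00096, and neither turned the sign of a list median given below.

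Mitochondrially encoded genes, which encode subunits of the respiratory chain, lay lower in treated lineages in 13 of 13 cases, with a median of -0.51. Their differences ran from -0.87 for ATP8, a subunit of ATP synthase, to -0.27. CYTB had 7329, 9143 and 13709 in treated lineages against 13202, 14661 and 11752 in DMSO. R5 and R6 lay within the DMSO range, R3 was the lowest, and the difference was -0.43 ± 0.19 (SE, log2; limma adjusted p = 0.895). By library, the list stood at -0.90 in R3, -0.59 in R4 and -0.44 in R1, but at 0.55 in R5 and 0.30 in R6, against 0.40 in R8, 0.58 in R9 and -0.0019 in R10. The treated range thus enclosed the DMSO values but for R9, and the median stayed below 0 when each library was left out (-0.73 to -0.36).

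Cholesterol and fatty acid synthesis genes lay lower in 30 of 32 cases, with a median of -0.20. STARD4, a sterol carrier, had 236, 314 and 423 against 323, 512 and 574 in DMSO and differed by -0.51 ± 0.21 (SE, log2; limma adjusted p = 0.895). R8 lay within the treated range and R9 and R10 above it. The list stood at 0.34 in R9 and 0.36 in R10, above R1 at 0.16, and at -0.25 in R8. Without R10 its median was -0.072 and without R8 -0.42.

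Replication-dependent histone genes lay lower in 31 of 32 cases (median -0.19) and G2/M genes in 24 of 33 (median -0.074). H4C4 had 924, 1129 and 2724 against 926, 3277 and 2948 in DMSO, with R1 the highest treated library, near R9 and R10, and R8 among the lowest values, and differed by -0.64 ± 0.44 (SE, log2; limma adjusted p = 0.946). MKI67, which coats mitotic chromosomes, had 6359, 8279.8 and 14056 against 8382, 13132 and 12102 in DMSO and differed by -0.28 (95% interval -0.82 to 0.27). Both list medians hung on R8 and R9: for histones they ran from -0.51 without R8 to -0.0034 without R9, and for G2/M genes from -0.27 to 0.07, a change of sign. Reads of histone genes can be split among near-identical copies. CDKN1C, an inhibitor of G1 kinases, was a cell cycle gene whose groups did not overlap, with 92, 170.3 and 266 against 84.6, 81.9 and 67.7 in DMSO, a difference of 1.06 ± 0.29 (SE, log2; limma adjusted p = 0.811). With the mean of the G2/M list as a covariate, a fit added after the data were seen, 0 genes passed in limma. An unadjusted p under 0.05 was found for 1319 of 14410 genes, against 797 (5.53%) without the covariate. The covariate was computed from these same libraries, and what the change in count reflects was not tested.

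Collagen and matrix genes lay higher in 27 of 33 cases, with a median of 0.23 that ran from 0.077 without R9 to 0.40 without R1. POSTN, which encodes the matrix protein periostin, had 45.3, 246 and 447 in treated lineages against 396, 11.1 and 4.91 in DMSO. R8 stood about as high as R3, the second highest treated library, and R1 the lowest treated one, so the difference of 2.68 ± 1.18 (SE, log2; limma adjusted p = 0.895) rested on R9 and R10. TNC, the matrix protein tenascin C, had 1594, 2722 and 5383 against 3190.4, 777 and 1084 in DMSO and differed by 1.00 ± 0.48 (SE, log2; limma adjusted p = 0.905). Muscle and fibroblast markers summed to 8655 to 23009 in treated and 9609 to 17546 in DMSO lineages. They include collagens of the matrix list, and MYOD1 and MYOG stayed below 1 in all 9 libraries. Their part in the matrix difference was not tested.

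NF-kB and secreted inflammatory genes lay higher in 11 of 13 cases tested (median 0.49), and 15 further members had means below 10. ICAM1, an adhesion receptor for leukocytes, had 40.2, 130.2 and 218 against 149.7, 24 and 11.7 in DMSO. R8 lay within the treated range, R1 was the lowest treated library, and the difference was 1.67 ± 0.72 (SE, log2; limma adjusted p = 0.895). Without R10 the list median was 0.16 and without R8 0.78. Antigen presentation genes lay higher in 14 of 18 cases, with a median of 0.26 that ran from 0.10 without R9 to 0.30 without R1. TAP1, the peptide transporter, lay the other way at -0.44 ± 0.20 (SE, log2; limma adjusted p = 0.901). Of 33 interferon-stimulated genes 21 lay higher, with a median of 0.11 that ran from 0.05 without R9 to 0.29 without R8. IFI6 stood at 18.4, 32.3 and 48.1 against 20.5, 13.8 and 14.9 in DMSO, and OAS1, an antiviral nucleotide synthetase, lay lower in all 6 treated lineages at 227, 322 and 410.3 against 411, 431 and 498 in DMSO. The 2 genes of this list with the smallest p-values thus lay on opposite sides.

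**Figure D5:**
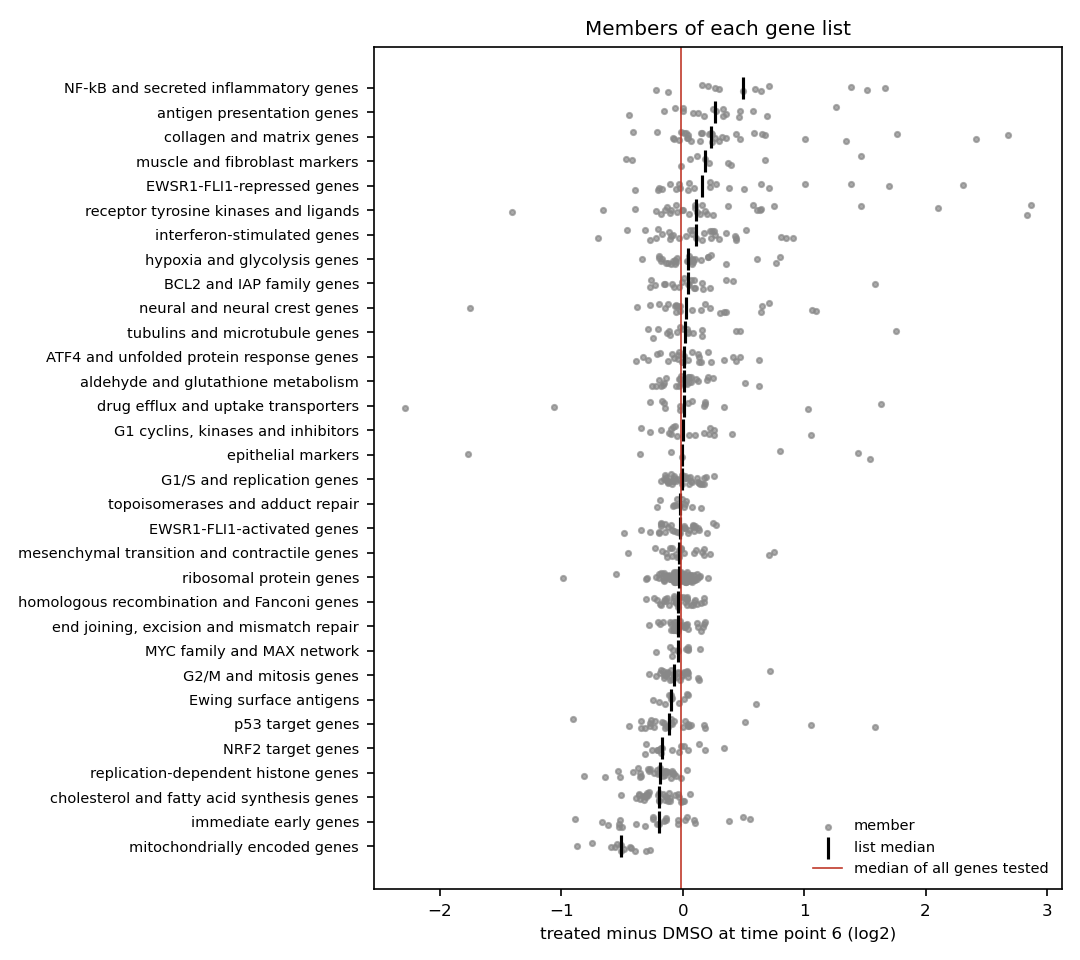
Treated minus DMSO difference (horizontal, log2) of each tested member (grey points) and the list median (black bar) of the gene lists, with the median of all genes tested as a red line. Mitochondrially encoded, cholesterol and histone genes lie left of the line and NF-kB, antigen presentation and matrix genes right of it, while no member passed the test.

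Receptor tyrosine kinases and ligands ranged widely. Of 32 tested 20 lay higher and 12 lower (median 0.11, from 0.03 without R9 to 0.15 without R1), and single genes ran from -1.41 for ERBB3 to 2.87 for EGFR, which is named here after its value was seen. VEGFA, the endothelial growth factor, had 378, 422 and 508 against 389.5, 246 and 230.2 in DMSO and differed by 0.61 ± 0.17 (SE, log2; limma adjusted p = 0.811), with R8 in the treated range. NGFR, a neurotrophin receptor, differed by 0.34, and its groups did not overlap (2356, 2761 and 3081 against 2204, 2314 and 1913 in DMSO). SLC7A5 and SLC3A2, which together form an amino acid exchanger induced by ATF4, differed by 0.44 and 0.41. They were picked by p-value from 27 ATF4 and unfolded protein response genes, of which 15 lay higher and 12 lower. The median of that list was 0.014, and ran from -0.039 without R10 to 0.19 without R8. SLC7A5 had 15522, 17981 and 28455 in treated lineages against 14887, 14274 and 13603 in DMSO, with no overlap. BNIP3, a hypoxia-induced mitophagy receptor, differed by 0.36 and did not overlap either. Of 30 hypoxia and glycolysis genes tested, BNIP3 and VEGFA among them, 17 lay higher and 13 lower. The median of that list was 0.044, and ran from -0.061 without R8 to 0.16 without R9. Keratin genes went both ways, KRT18 at 1.55 and KRT17 at -1.77, with 11.2, 25.5 and 63.5 for KRT17 in treated lineages against 47.7, 157 and 112 in DMSO.

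The last comparison asked whether the difference between the arms at time point 6 differed from that after the VDC course before it, at time point 5, in the same 9 lineages. By limma's interaction term 0 of 14410 genes (0%) passed, and 480 (3.33%) had an unadjusted p under 0.05, 350 with a more positive (2.43%) and 130 with a more negative difference (0.902%) at time point 6. With each lineage as a replicate block 0 genes passed and 606 (4.21%) had an unadjusted p under 0.05. Without DMSO R8, 20 genes passed, all more positive at time point 6, ARHGAP33 and CES4A among them. CES4A moved from time point 5 to 6 by 0.11 to 0.98 (median 0.70, log2) in treated lineages, and by 0.093 in R8, -2.08 in R9 and -1.46 in R10. All treated lineages stood higher than before, and R9 and R10 lower, an interaction of 1.76 ± 0.38 (SE, log2; limma adjusted p = 0.937). FBXL8 gave 1.78 ± 0.40 and ARHGAP33 0.89 ± 0.19 (SE, log2), both with the same limma adjusted p. In all 3 genes R9 and R10 moved down by more than any treated lineage moved down. Values for single genes here and below come from the fit without the block, which treats both libraries of a lineage as independent. With the block the SE was 0.42 for CES4A, 0.45 for FBXL8 and 0.21 for ARHGAP33. For LINC01122 and DNM3, described below, it was 0.37 and 0.19.

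The genes that stood relatively lower at time point 6 went the other way. LINC01122, a long noncoding RNA, moved by -1.42 to -0.64 in treated lineages and by 0.51 in R8, 1.30 in R9 and 0.032 in R10. The interaction was -1.58 ± 0.42 (SE, log2; limma adjusted p = 0.972). DNM3, a dynamin of membrane fission, gave -0.74 ± 0.19 (SE, log2; limma adjusted p = 0.937), and its 3 DMSO lineages moved up by 0.58 to 0.65. MIGA2 and MRI1 gave 0.77 and 0.73, and FAIM, DMTN and TBL1X -1.77, -1.50 and -0.47. No batch of extraction or sequencing is given in the sources used here, so none could be compared within.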

How the data were processed

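RNA was extracted with a Qiagen AllPrep kit per the labels' protocols, and the submitters' processing notes name STAR, featureCounts and GRCh38, without versions. The deposited signal is the authors' quantile-normalized count per gene, and treated and DMSO columns have slightly different totals. High values recur nearly alike in both arms, as for CCND1 at 44967.6 in treated R3 and 44968.7 in DMSO R9 and R10. Whether the arms were normalized together or apart cannot be told from these values. How the normalization was run and the depth of each library are not given in the sources used here, so counting error is unknown. Samples were grouped by their titles, and no column was without a sample.

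Values were tested as log2(value + 1) for genes with a mean of at least 10, with limma 3.58.1 (trended variance, R 4.3.3) and Benjamini-Hochberg adjustment at 0.05. The 9 libraries entered the comparison of the arms, and 18 libraries of time points 5 and 6 the interaction. Distances between libraries were tested by exact permutation over 84 splits. The code was tested on simulated data. Treated and DMSO lineages share no replicate number, so the arms were not paired. Between time points 5 and 6 a number marks 1 culture in the submitters' design, and deviations of a lineage at both times correlated with r from -0.12 to 0.63 across genes, above 0.1 in 6 of 9 lineages.

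Named genes were the 10 with the smallest p-values in each direction, 2 per gene list, a set of drug and fusion genes, and the 5 smallest interaction p-values in each direction. Others are marked in the text. The members and the 34 lists were chosen with earlier results of these data known. Alternatives were the pseudocount, the filter, the scaling, the shared fit, weights, robust variance, the replicate block and leaving out each library. Figures were drawn with matplotlib 3.10.9.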

Additional observations from a re-analysis of the deposited data

Results flagged for a closer look

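Among 134 sets of 6 treated values examined, 7 had a lineage far from the other 5 by Dixon's criterion, which chance meets in about 1 of 20 sets. Treated R1 was the lowest for ACADVL, with a normalized count of 1841 against 2219 to 2450 in the others. It was also the lowest for PMAIP1, with 4.02 against 25.3 to 54.0, and for TAPBP, an assembly factor of MHC class I, with 1357 against 1611 to 1768. R3 was the highest for FBXL8, with 98.9 against 58.2 to 70.8, and for BNIP3, with 793 against 578 to 623. R7 was the highest for RAB26, with 379 against 240.2 to 279.5. R5 was the lowest for ABCG1, listed at 0.00158 against 4.19 to 10.1.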

How the results depend on the processing

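The count of 0 genes at time point 6 held in limma with a pseudocount of 0.5 or 10, a minimum mean of 50, a filter over 73 libraries, both rescalings, the shared fit and robust variance. Without a filter 8 genes passed, all lower, with mean normalized counts of 2.52 or less in both arms. Array weights gave 2662 genes, 1392 higher and 1270 lower, and put MXD1 at 0.018 and NR0B1 at 0.084. These weights came from the same values and were lowest for R8 and R1, so that count supports no difference between the arms. Leaving out 1 library gave 0 to 3 passing genes, 0 to 3 of them higher, the 2 without R1 and the 3 without R8. R1 and R8 were left out together as a choice made after seeing the data, because they lay with the other arm, which by itself widens the difference. That gave 551 genes, 434 higher and 117 lower, with MXD1 at 0.016, CD79A at -0.063 and NR0B1 at 0.0032. The between-arm minus within-arm distance was 0.151 (exact permutation p = 0.0476, the smallest that the remaining libraries allow). Because of how the 2 were chosen, neither the count nor this p supports a difference between the arms.

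Over the libraries left out in turn, the between-arm minus within-arm distance ran from -0.0091 to 0.0719, below 0 without R3, R4, R9 or R10. The treated minus DMSO spread ran from -0.113 to 0.249, below 0 without R1, R9 or R10. Genes near 0 changed sign: FLI1 at -0.0029, -0.032 and -0.016 without R3, R6 and R8, EWSR1 at -0.0047, -0.00012 and -0.011 without R5, R7 and R10, NR0B1 at 0.039 without R3, TOP2A at 0.025 without R9, and ABCC1 at -0.044 and -0.0041 without R9 and R10. Over all such fits FLI1 reached 0.024, EWSR1 0.063, ABCC1 0.28, NR0B1 -0.11 and TOP2A -0.26. The cause was not tested.

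For the interaction, the replicate block called 0 genes, with 606 at an unadjusted p under 0.05 against 480, and changed no call. Leaving out 1 lineage gave 0 to 20 passing genes, 0 to 20 of them more positive, the 20 without R8. Leaving out lineages 1 and 10, chosen after seeing the data, gave 0 (382 unadjusted). Unknown depth limits all low genes.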
